A study of Mus musculus with 8 samples.

Results

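Otx2 and 9 genes of the choroid plexus were examined library by library in RNA of mouse visual cortex. The choroid plexus is the secretory epithelium of the brain ventricles. The 10 genes are Otx2, Ttr, Folr1, Kl, Clic6, Kcne2, Aqp1, Slc4a5, Cldn2 and Prlr, taken by gene symbol from the 34980 genes in the deposited count tables. Each gene was represented by its transcript with the highest total count over the 6 libraries. The RNA was total RNA of layer IV of the visual cortex of B6D2 mice, hand-dissected. The heterozygous libraries came from mice at postnatal day 30 (P30), whose genotype is written Otx2 +/- in the sample labels and Otx2 +/GFP in the design of the series. The wild-type libraries (Otx2 +/+) came from mice at P100 and at P30. Each of these 3 groups had 2 libraries, and 4 mice were pooled per condition. Whether the duplicates were separate pools of mice is not labelled, so the p-values below measure the spread between libraries, which may be technical. Heterozygous P100 samples were not analysed here. The design compared genotypes at P30 and, in wild-type mice, ages.

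The choroid plexus makes the cerebrospinal fluid and adds secreted proteins to it. Its epithelial cells move ions, bicarbonate and water across a layer sealed by tight junctions, and take up vitamins for the brain. Otx2 is a homeodomain transcription factor that this epithelium makes throughout life; the secreted protein is known to be taken up by parvalbumin interneurons of the visual cortex, where it acts on the critical period of plasticity. Choroid plexus lies in the ventricles and is no part of cortical layer IV.

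All 10 genes had their highest level in 1 library, replicate 2 of the heterozygous P30 group, and 7 of them had 3 counts or fewer in each of the other 5. Across all genes with at least 1 count, 13.3% had their highest level in that library, and among genes with 30 counts or more it was 12.6%. Libraries held 11016841 to 15308781 gene-level counts, and levels below are counts per 1000000 of these totals (CPM). An upper limit for a gene with no count is 3 counts, or 0.196 to 0.272 CPM depending on the library. Intervals and this limit cover counting error only. In bulk RNA a smaller number of cells of a type and less RNA per cell cannot be told apart.

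Otx2 (ENSMUSG00000021848) lies on the minus strand of chromosome 14, from 48657677 to 48673819 in mm10. It had 73 counts in replicate 2 of the heterozygous P30 group. There were 0 counts in replicate 1 of that group, in both wild-type P100 libraries and in both wild-type P30 libraries. The level in replicate 2 was 4.77 CPM, with a 95% exact Poisson interval of 3.74 to 6.0. Set against the limit of 3 counts over the other 5 libraries together, Otx2 was 104-fold higher. The counting error of its 73 counts is not included in this ratio. The heterozygous libraries thus differed from each other in Otx2, while replicate 1 and all wild-type libraries shared a count of 0. Since wild-type libraries held no Otx2 reads, the count of the targeted gene gives no check of the genotype labels here.

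Ttr (ENSMUSG00000061808; chromosome 18, 20665280 to 20674321, plus strand) encodes transthyretin, the thyroxine carrier that the choroid plexus secretes into cerebrospinal fluid. It had 8966 counts in replicate 2 of the heterozygous group, or 586 CPM (95% exact Poisson interval 574 to 598). Replicate 1 of that group had 0 counts, the wild-type P100 libraries had 1 and 0, and the wild-type P30 libraries had 0 and 0. Only 1 Ttr count lay outside replicate 2, against 8966 in it.

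The 2 ion transport genes on chromosome 16 showed a like distribution. Clic6, an intracellular chloride channel protein, had 92 counts in heterozygous replicate 2 and 0 in replicate 1, against 0 and 0 in wild-type P100 and 0 and 1 in wild-type P30 libraries. Kcne2, a potassium channel beta subunit found in the choroid plexus epithelium, had 91 counts in heterozygous replicate 2 and 1 in replicate 1, against 2 and 0 in wild-type P100 and 0 and 0 in wild-type P30 libraries. Replicate 2 had 394 times (95% interval 69.1 to 15746) the Clic6 level of the other 5 libraries pooled, and 130 times (43.1 to 642) their Kcne2 level. The width of these intervals comes from the 1 and 3 counts in the pooled libraries.

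Cldn2, which forms a cation and water pore in the tight junctions of leaky epithelia, had 59 counts in heterozygous replicate 2 and 1 in replicate 1, against 0 in each of the 4 wild-type libraries. Slc4a5, a sodium bicarbonate cotransporter, had 35 counts in heterozygous replicate 2 and 1 in replicate 1, against 0 and 1 in wild-type P100 and 0 and 0 in wild-type P30 libraries. Folr1, the folate receptor alpha, had 29 counts in heterozygous replicate 2 and 1 in replicate 1, against 0 and 1 in wild-type P100 and 0 and 0 in wild-type P30 libraries. For these 3 genes, replicate 1 of the heterozygous group lay with the wild-type libraries and replicate 2 lay apart. Replicate 2 had 253 times (95% interval 43.7 to 10158) the pooled level of the other libraries for Cldn2, 75.0 times (19.3 to 644) for Slc4a5 and 62.2 times (15.7 to 538) for Folr1.

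The other 3 genes had reads in every library. Kl encodes klotho, a coreceptor for fibroblast growth factor 23 that is also shed into cerebrospinal fluid. It stood at 10.5 CPM in heterozygous replicate 2 (161 counts) and 0.876 CPM in replicate 1 (13 counts), against 1.16 and 1.07 CPM in wild-type P100 and 0.635 and 0.807 CPM in wild-type P30 libraries. Prlr, the prolactin receptor, stood at 5.55 CPM in heterozygous replicate 2 and 1.15 CPM in replicate 1, against 1.67 and 2.78 CPM in wild-type P100 and 0.817 and 1.21 CPM in wild-type P30 libraries. Aqp1, the water channel of the apical membrane of the choroid plexus, stood at 1.96 CPM in heterozygous replicate 2 and 0.539 CPM in replicate 1, against 0.146 and 0.0895 CPM in wild-type P100 and 0.0908 and 0.605 CPM in wild-type P30 libraries. Replicate 2 was again the highest library for each gene, while replicate 1 lay within the range of the wild-type libraries. Relative to the other 5 libraries pooled, replicate 2 was at 11.5 times for Kl (95% interval 8.50 to 15.7), 6.12 times for Aqp1 (3.39 to 11.3) and 3.72 times for Prlr (2.75 to 5.02). Relative to the next library alone, the ratio was 9.03 for Kl, 3.24 for Aqp1 and 2.00 for Prlr.

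**Figure D1:**
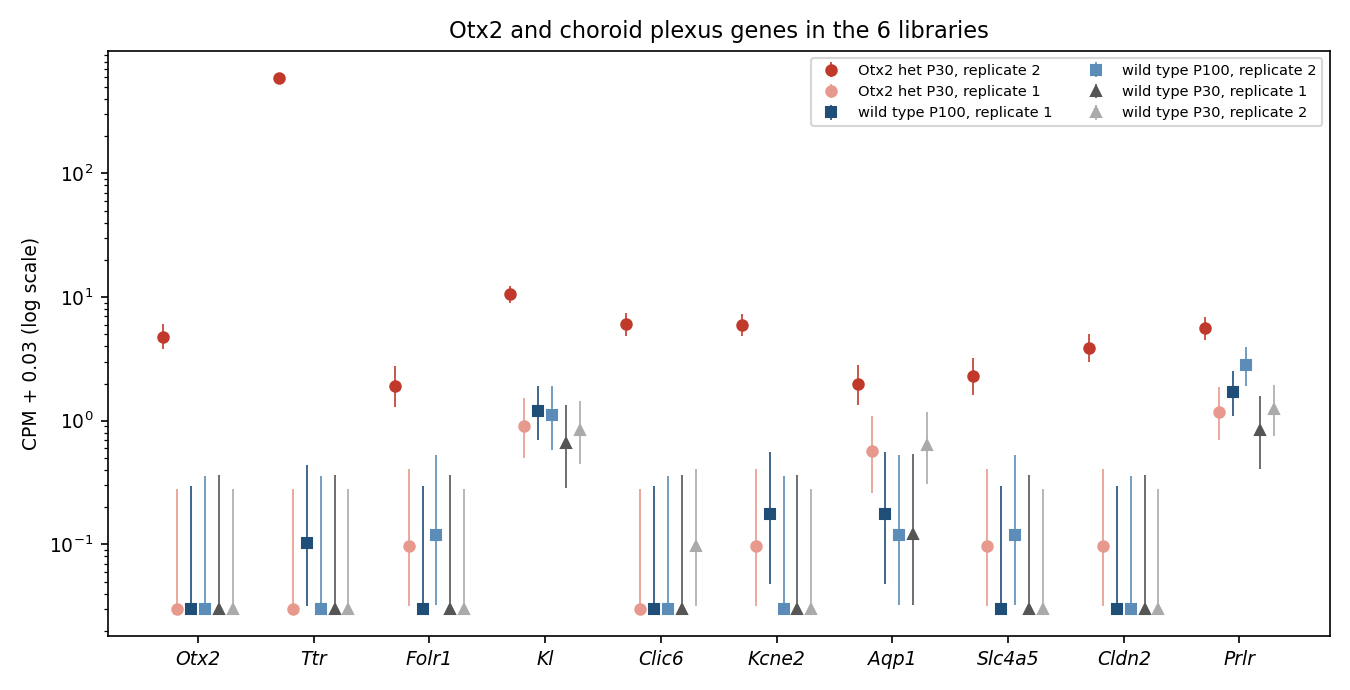
CPM of the 10 genes in each of the 6 libraries, on a log axis after adding 0.03; points are single libraries and bars are 95% exact Poisson intervals of the count. Replicate 2 of the heterozygous P30 group is the highest point for every gene, from 1.89 CPM for Folr1 to 586 CPM for Ttr, and Kl, Aqp1 and Prlr are the 3 genes with counts above 3 in other libraries.

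Summed over the 10 genes, the level was 628 CPM in heterozygous replicate 2 and 2.83 CPM in replicate 1, against 3.20 and 4.12 CPM in wild-type P100 and 1.54 and 2.69 CPM in wild-type P30 libraries. Without Ttr, replicate 2 still held 42.8 CPM, against 1.54 to 4.12 CPM in the other 5. None of the 10 genes was at 0 in heterozygous replicate 2 and 3 were at 0 in replicate 1, against 5 and 5 in wild-type P100 and 7 and 6 in wild-type P30 libraries. The ordering of the other 5 libraries in this sum was set mainly by Kl, Prlr and Aqp1. Leaving those 3 genes and Ttr aside, the remaining 6 genes had 379 counts in replicate 2 and 4 in replicate 1, against 2 and 2 in wild-type P100 and 0 and 1 in wild-type P30 libraries.

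Apart from Prlr, every transcript of the 10 genes with a count in replicate 2 had its highest CPM there. Of the 54 deposited transcripts of the 10 genes, 49 had their highest CPM in that library and 1 had no count there. The 8 Otx2 transcripts had 5 to 73 counts in replicate 2 and 0 in the other 5 libraries. The transcripts that were higher elsewhere all belonged to Prlr, for which 8 of 12 were highest in replicate 2. The chosen Prlr transcript held 42.1% of its summed CPM in replicate 2, against 19.9% to 36.8% for the other Prlr transcripts. Reads were counted in every isoform they overlapped, so these transcripts are not independent measurements. None of the exon bases of the chosen transcripts was shared with another annotated gene, apart from 2.05% in Prlr, shared with Gm21973. In mm10 coordinates, the protein-coding genes beside Otx2 and Ttr were Folr1 (ENSMUSG00000001827) on chromosome 7 (101858331 to 101870788, minus strand), Kl (ENSMUSG00000058488) on chromosome 5 (150952607 to 150993817, plus strand), Clic6 (ENSMUSG00000022949) on chromosome 16 (92485736 to 92541243, plus strand) and Kcne2 (ENSMUSG00000039672) on chromosome 16 (92292389 to 92298129, plus strand). The others were Aqp1 (ENSMUSG00000004655) on chromosome 6 (55336432 to 55348555, plus strand), Slc4a5 (ENSMUSG00000068323) on chromosome 6 (83219828 to 83304945, plus strand), Cldn2 (ENSMUSG00000047230) on chromosome X (139800828 to 139811386, plus strand) and Prlr (ENSMUSG00000005268) on chromosome 15 (10177238 to 10349180, plus strand).

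Levels between genes were compared per kilobase of transcript, in replicate 2 of the heterozygous group. Ttr stood at 494 CPM per kilobase (95% exact Poisson interval 484 to 504), above all other genes. Kcne2 followed at 3.52 (2.83 to 4.32), then Otx2 at 2.22 (1.74 to 2.80), Kl at 2.05 (1.75 to 2.40), Clic6 at 1.60 (1.29 to 1.96), Folr1 at 1.45 (0.971 to 2.08) and Cldn2 at 1.27 (0.964 to 1.63). Aqp1 at 0.746 (0.503 to 1.06), Prlr at 0.561 (0.448 to 0.693) and Slc4a5 at 0.446 (0.311 to 0.621) closed the order. Ttr and Kcne2, and Kcne2 and Otx2, had intervals that did not overlap; from Otx2 down, the interval of each gene overlapped that of the next. In the other 5 libraries no gene exceeded 0.280 CPM per kilobase, the value of Prlr in a wild-type P100 library.

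Sequences upstream of the start sites are shown for Otx2, whose 8 transcripts had reads in a single library, and for Kcne2 and Cldn2, which moved with it. The windows come from RefSeq on GRCm38.p6. From 7 of the 10 genes, 13 windows of 300 bases (250 before to 50 after a start) were used. No window of Ttr, Folr1 or Clic6 was used, so the matches below do not cover these genes. Capitals mark TAATC or its reverse complement GATTA, the core bound by the bicoid class of homeodomains, to which the Otx2 protein belongs. The Otx2 window shown, of 4 listed the only 1 with a match, is chr14:48665110-48665359 (minus strand). The Kcne2 window, also the only listed window of its gene with a match, is chr16:92292139-92292388 (plus strand). The Cldn2 window is chrX:139800558-139800807 (plus strand). Each is read 5′ to 3′ and ends 1 base before the start.
Otx2: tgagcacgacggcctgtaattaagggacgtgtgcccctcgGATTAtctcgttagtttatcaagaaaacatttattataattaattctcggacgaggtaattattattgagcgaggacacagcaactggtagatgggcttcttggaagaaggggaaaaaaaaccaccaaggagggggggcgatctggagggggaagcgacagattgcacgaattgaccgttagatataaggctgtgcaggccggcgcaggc
Kcne2: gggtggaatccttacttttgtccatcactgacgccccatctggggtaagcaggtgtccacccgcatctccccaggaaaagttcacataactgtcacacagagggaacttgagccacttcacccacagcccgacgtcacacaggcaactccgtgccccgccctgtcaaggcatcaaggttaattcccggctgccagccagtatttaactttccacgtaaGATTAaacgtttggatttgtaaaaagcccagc
Cldn2: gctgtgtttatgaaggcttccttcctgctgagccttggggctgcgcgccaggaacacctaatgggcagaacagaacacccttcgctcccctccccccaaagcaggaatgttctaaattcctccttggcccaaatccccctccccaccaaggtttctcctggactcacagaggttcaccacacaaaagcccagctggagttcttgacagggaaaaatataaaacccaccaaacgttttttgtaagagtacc
Both strands of all windows were searched for TAATC and for the longer TAATCC, which contains it. TAATC was present in 3 of the 13 windows, 1 each of Otx2 (first base at -210 from the start), Kcne2 (at -32) and Kl (at 2), against 22% of the 32851 RefSeq windows of the same length. TAATCC was present in 1 of the 13, the Otx2 window shown, against 7.1% of all windows. The match in Kl lies after its start. These matches describe the letters in the windows and are not binding sites.

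Ratios to Ttr could be given for replicate 2 of the heterozygous group alone, since Ttr had 0 or 1 count in the other 5 libraries. Per 100 Ttr counts there were 1.8 counts of Kl (95% exact binomial interval 1.53 to 2.10), 1.03 of Clic6 (0.826 to 1.26), 1.01 of Kcne2 (0.816 to 1.25) and 0.948 of Prlr (0.756 to 1.17). Otx2 stood at 0.814 (0.638 to 1.02), Cldn2 at 0.658 (0.501 to 0.850), Slc4a5 at 0.390 (0.272 to 0.543), Aqp1 at 0.335 (0.226 to 0.478) and Folr1 at 0.323 (0.216 to 0.465). All 9 genes therefore lay within 0.323 to 1.8 counts per 100 of Ttr, and the intervals of Otx2, Clic6, Kcne2 and Prlr overlapped each other.

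Part of the Kl, Prlr and Aqp1 counts in replicate 2 was of the size seen in the other libraries. After subtracting the highest of the other 5 libraries from the CPM, the ratio per 100 of Ttr was 1.60 for Kl, 0.474 for Prlr and 0.231 for Aqp1. For Otx2 the ratio stayed at 0.814, and for Clic6, Kcne2, Cldn2, Slc4a5 and Folr1 it was 1.01, 0.990, 0.647, 0.375 and 0.308. Divided by transcript length as well, the ratio of the whole count was highest for Kcne2 (0.712) and lowest for Slc4a5 (0.0904), with Otx2 at 0.450. Counts summed over all transcripts of a gene gave 2.55 for Otx2 and 3.73 for Folr1, because a read was counted in each overlapping isoform and these genes have 8 and 17 transcripts, against 1 for Ttr.

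**Figure D2:**
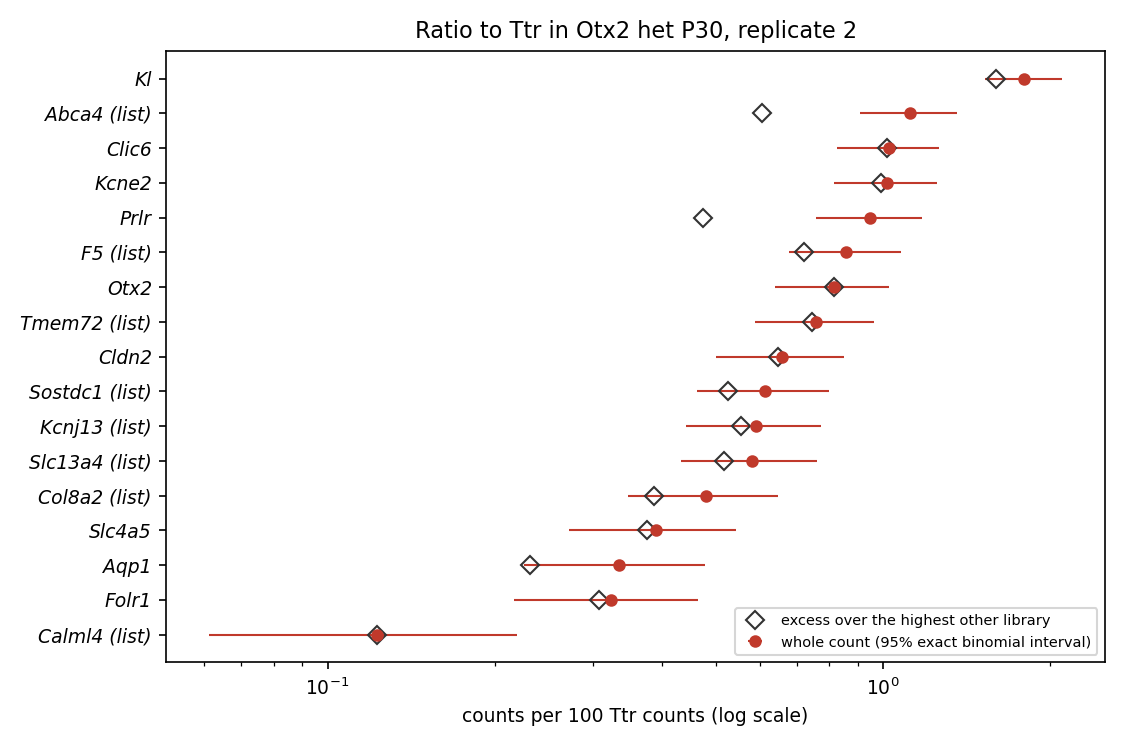
Counts per 100 Ttr counts in replicate 2 of the heterozygous P30 group, on a log axis, for the 9 genes other than Ttr and 8 genes of a further choroid plexus list (Enpp2, at 73.5, is not drawn); filled circles are whole counts with 95% exact binomial intervals and open diamonds the excess over the highest other library. The 9 genes lie between 0.323 and 1.8, and the circle and the diamond of Prlr, at 0.948 and 0.474, are apart.

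A further list of 30 choroid plexus genes, none of them among the 10, showed where else replicate 2 of the heterozygous group differed. The files held 29 of them and 28 were detected. Of these, 23 had their highest level in that library, as did 13.3% of all genes with at least 1 count. Among the 23, Krt18, Slco1a5, Lmx1a and Steap1 had only 3, 3, 7 and 9 counts in replicate 2. Krt8 was at 0 in all libraries. Of the 22 list genes with 30 counts or more over the 6 libraries, 17 were highest in replicate 2 and 8 reached 2 times the next library. That margin was reached by 0.198% of all genes with 30 counts or more. Among these list genes, Tmem72, Kcnj13, Slc13a4, Col8a2, Sostdc1, Trpv4 and Msx1 reached 30 counts only through replicate 2. The counts of 17 and 8 thus follow in part from that filter and are no separate support. The list genes with that margin and 10 counts or more in replicate 2 were Enpp2, Calml4, Sostdc1, Tmem72, Kcnj13, Col8a2, F5, Slc13a4 and Abca4. Other list genes did not differ this way. Otx1, Cab39l, Slc12a2, Atp1b1 and Col8a1 were not highest in replicate 2, at 0.857 to 0.996 times the highest other library. Slc4a2, Igfbp2, Slc29a4, Igf2 and Mfrp were highest in it at only 1.03 to 1.14 times the next library.

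Tmem72, a membrane protein known from the choroid plexus, had 68 counts in heterozygous replicate 2 and 0 in replicate 1, against 0 and 1 in wild-type P100 and 1 and 1 in wild-type P30 libraries. Kcnj13, an inward rectifier potassium channel, had 53 counts in heterozygous replicate 2 and 1 in replicate 1, against 3 and 1 in wild-type P100 and 1 and 3 in wild-type P30 libraries. Calml4, a calmodulin-like protein, had 11 counts in replicate 2 and 0 in the other 5. Outside replicate 2, these 3 genes had 3 counts or fewer per library. The sulfate transporter Slc13a4 (52 counts), the BMP antagonist Sostdc1 (55), the collagen chain Col8a2 (43) and coagulation factor F5 (77) were highest there too, with 1 to 12 counts in each of the other libraries.

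Enpp2, which encodes the secreted enzyme autotaxin, was abundant in every library. It stood at 431 CPM in heterozygous replicate 2 and 186 CPM in replicate 1, against 155 and 170 CPM in wild-type P100 and 195 and 206 CPM in wild-type P30 libraries. Its level in replicate 2 thus lay 224 CPM above the highest other library, or 38.3 per 100 of Ttr. Enpp2 made up most of the gap in the summed level of the list: without it, the list stood at 1971 CPM in replicate 2 against 1662 to 1919 CPM in the other 5. Oligodendrocytes also express Enpp2, as background. The transporter Abca4 was likewise present everywhere, at 6.53 CPM in heterozygous replicate 2 and 2.63 CPM in replicate 1, against 2.40 and 1.61 CPM in wild-type P100 and 3.0 and 2.89 CPM in wild-type P30 libraries. The excess of the 10 genes and these 9 over the highest other library came to 0.0872% of the counts of replicate 2. Whether choroid plexus tissue in the dissected sample accounts for the levels of the 10 genes was not tested.

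**Figure D3:**
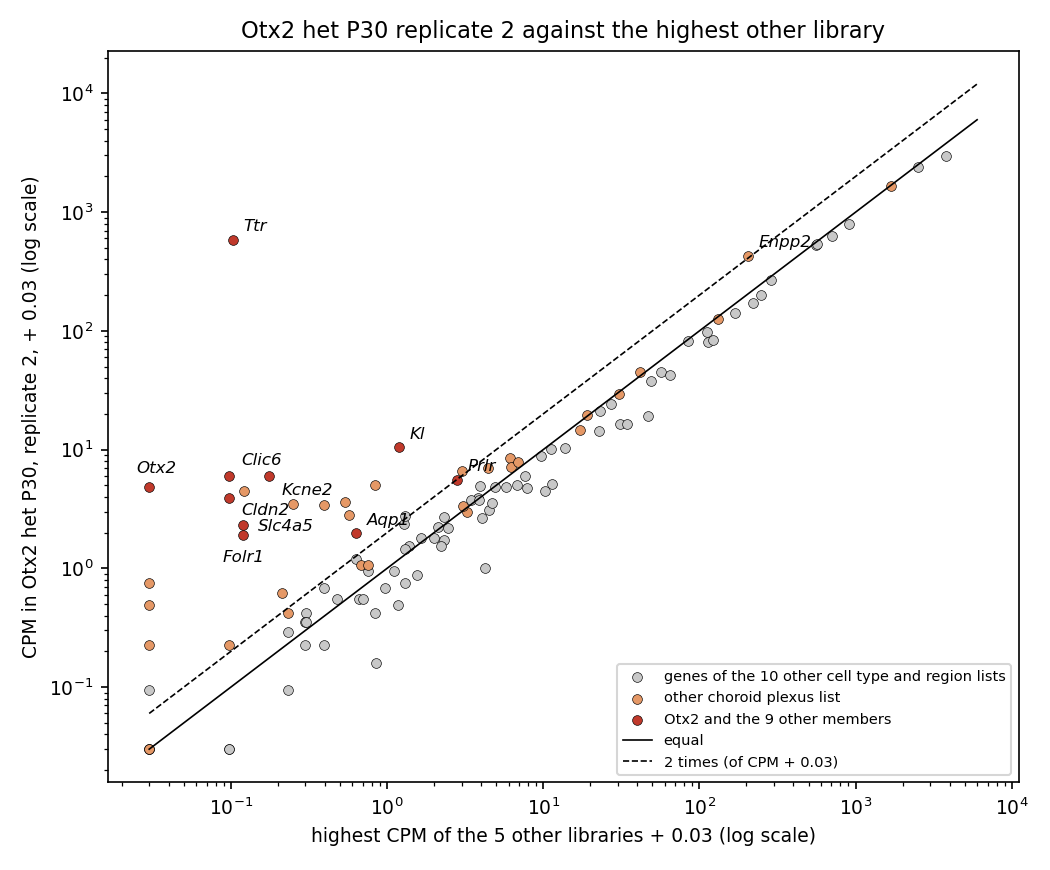
CPM in replicate 2 of the heterozygous P30 group (vertical) against the highest CPM of the 5 other libraries (horizontal), both on log axes after adding 0.03, for the 10 genes, the further choroid plexus list and 10 other cell type and region lists. The 10 genes lie above the line of equality, with Ttr at 586 CPM against 0.0728 CPM, while most genes of the other lists lie near that line.

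Of 10 lists of other cell types and regions, several had more genes highest in replicate 2 than the 13.3% of all detected genes, while 1 gene in each of 2 lists reached 2 times the next library. Of the ependymal genes, which mark the ciliated cells that line the ventricles, 4 of 10 detected were highest in it and 0 reached 2 times the next library, the closest being Mlf1 with 1.18 CPM in replicate 2 against at most 0.606 CPM elsewhere. Their sum was 26.7 CPM in replicate 2 against 22.5 to 25.6 CPM in the other 5, and Ccdc153 and Tmem212 were at 0 in all libraries. Meningeal genes summed to 41.8 CPM in replicate 2, within the 35.2 to 64.6 CPM of the others, with 5 of 12 highest in it and 0 at that margin, the closest being Ogn with 2.35 CPM in replicate 2 against at most 1.25 CPM elsewhere. Endothelial genes summed to 198 CPM against 194 to 237 CPM, with 0 of 6 highest in replicate 2, and 1 of 3 blood genes was highest in it.

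Otx2 is also made in retina, pineal gland and retinal pigment epithelium, whose genes were therefore listed too. They summed to 14.3 CPM in replicate 2 against 13.2 to 15.1 CPM in the other 5 libraries, and 4 of 11 were highest in it. The 4 were Best1 (1.76 CPM in replicate 2 against at most 1.61 CPM elsewhere), Rcvrn (0.653 against 0.364 CPM), Aanat (0.327 against 0.269 CPM) and Tyr, with 1 count against 0. Crx and Rgr had 0 counts in replicate 2 and Tph1 had 1. Of the hippocampal genes, 5 of 8 were highest in replicate 2, and C1ql2, a synaptic protein of dentate granule cells, was at 2 times the next library. C1ql2 had 42 and 19 counts in heterozygous replicates 2 and 1, against 3 and 2 in wild-type P100 and 1 and 3 in wild-type P30 libraries, so that here both heterozygous libraries lay above the wild-type ones.

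The labelled tissue was checked with genes of cortical layer 4 and of neurons in general. The layer 4 list, with Rorb among its 8 genes, summed to 1907 CPM in heterozygous replicate 2 against 1855 to 2175 CPM in the other 5 libraries. The list of 6 neuronal genes summed to 6910 CPM against 6474 to 7447 CPM. None of these 14 genes was highest in replicate 2, and none of the striatal or thalamic genes was. The neuronal sum of replicate 2 thus lay within the range of the other libraries. For the layer 4 list, both heterozygous libraries (1907 and 1855 CPM) lay below all 4 wild-type libraries (1928 to 2175 CPM). Cux1 and Whrn of that list were lowest of the 6 libraries in replicate 2. Sex-linked transcripts differed with genotype: Xist stood at 928 and 789 CPM in heterozygous libraries, against 0.269 to 0.635 CPM in the 4 wild-type libraries, so that sex and genotype cannot be told apart in the genotype comparison.

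**Figure D4:**
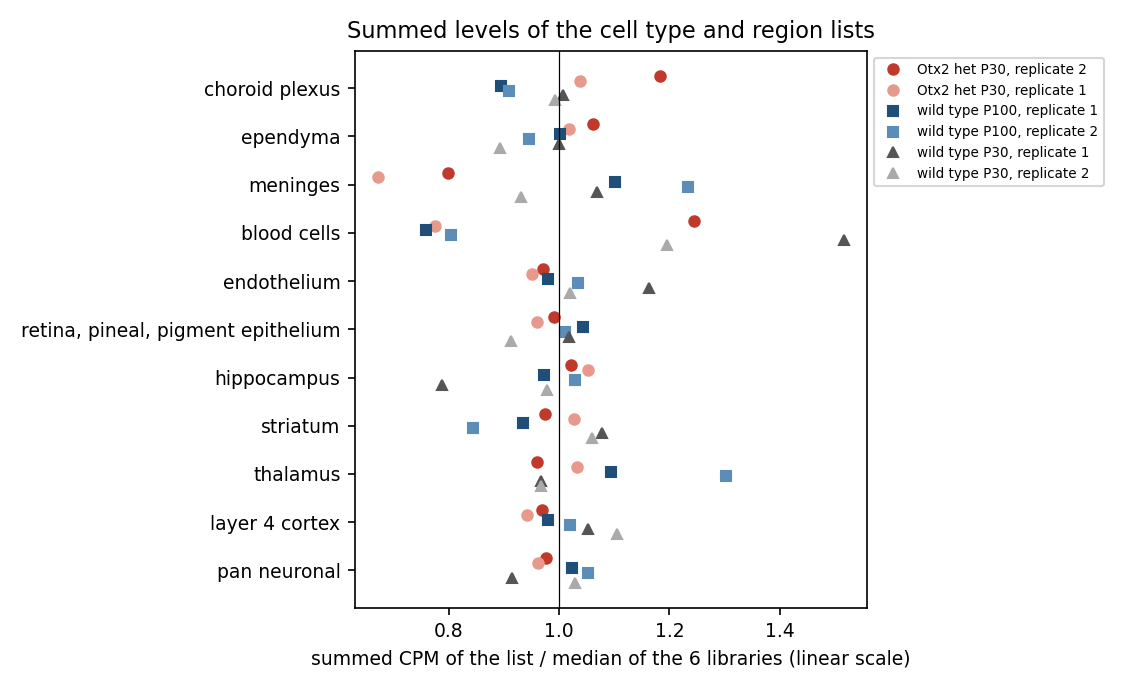
Summed CPM of each cell type or region list in each library, divided by the median of the 6 libraries, on a linear axis; points are single libraries. For the choroid plexus list, which leaves out the 10 genes, replicate 2 of the heterozygous P30 group (2402 CPM) lies to the right of the other 5 (1817 to 2105 CPM; without Enpp2, 1971 CPM against 1662 to 1919 CPM), and for the layer 4 and neuronal lists it lies among them.

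How much of a gene's summed CPM over the 6 libraries lay in replicate 2 was used as a measure of likeness to Otx2, over 16664 genes with 30 counts or more. Otx2 had 100% there and was first, followed by Ttr (99.99%), Clic6 (98.9%), Cldn2 (98.3%) and Kcne2 (96.5%). Slc4a5 (93.6%) and Folr1 (92.4%) held ranks 8 and 9, Kl (69.8%) rank 13, Aqp1 (57.1%) rank 20 and Prlr (42.1%) rank 27. In all, 11 genes, or 0.066%, held 80% or more of their summed CPM in replicate 2, and 7 of them were among the 10 genes. The other 4 were 1500015O10Rik (96.0%), named here after its value was seen, Tmem72, Kcnj13 and Ccdc135. No gene reached 80% in any of the other 5 libraries. The 7 genes had 3 counts or fewer in each of those libraries and reached 30 counts only through replicate 2. Aqp1 and the other 4 genes named above also reached 30 counts only through it. The high shares of all these genes thus follow from that filter and are no separate support. At 50% or more there were 21 genes in replicate 2 and 2 in replicate 1 of the heterozygous group, against 0 and 4 in wild-type P100 and 0 and 0 in wild-type P30 libraries.

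Outside the 10 genes and leaving out Gm and Rik names, the highest shares in replicate 2 were those of Tmem72 (94.7%), Kcnj13 (83.8%) and Ccdc135 (80.7%). Slc13a4 (72.5%), Sostdc1 (66.7%), Col8a2 (66.6%) and F5 (59.7%) came next. All but Ccdc135 belonged to the choroid plexus list, which was chosen with earlier results of these data known. Of these 7 genes, all but F5 reached 30 counts only through replicate 2. Their high shares follow from that filter, so the overlap with the list is no separate support. Ccdc135, which is not on the list, had 32 counts in heterozygous replicate 2 and 4 in replicate 1. It had 1 and 1 counts in wild-type P100 and 0 and 1 in wild-type P30 libraries. The remaining genes named by the rule were Tsix (59.6%), C1ql2 (58.2%), Mia2 (58.1%), Xist (54.0%), Rbm47 (47.5%), Gmnc (45.5%), Fmod (44.6%) and Slc47a1 (43.7%). Of these 8, all but Rbm47 and Gmnc had their second-highest CPM in replicate 1 of the heterozygous group, and Tsix and Xist overlap each other on opposite strands. The measure rests on 6 libraries that share their preparation, and was chosen with the Otx2 counts known.

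**Figure D5:**
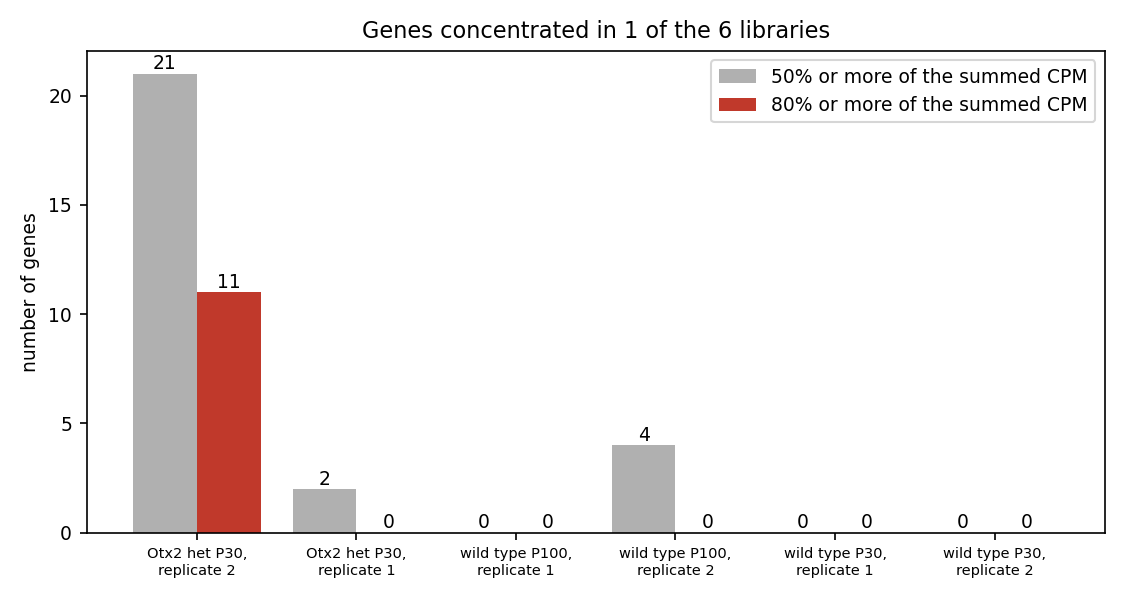
Number of genes, of 16664 with 30 counts or more, that held at least 50% (grey) or at least 80% (red) of their summed CPM in 1 library, for each of the 6 libraries. Replicate 2 of the heterozygous P30 group holds 21 and 11 such genes, and no other library has more than 4.

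The genotype comparison set the 2 heterozygous P30 libraries against the 2 wild-type P30 libraries. By edgeR's quasi-likelihood test, 2 of the 10 genes passed the filter on low counts, Kl and Prlr. Neither was past a Benjamini-Hochberg adjusted p of 0.05, a threshold passed by 3.23% of the 15841 genes tested (0.903% higher and 2.32% lower). Kl had a log2 difference of 2.92 (SE 0.83, adjusted p = 0.0754) and Prlr one of 1.65 (SE 0.59, adjusted p = 0.160). Their unadjusted p-values, 0.00348 for Kl and 0.0148 for Prlr, were both under 0.05, and limma-voom called neither, at adjusted p = 0.379 and 0.370; DESeq2 gave no adjusted p for them. Both heterozygous libraries lay above both wild-type P30 libraries for 5 of the 10 genes, an arrangement found for 29.3% of genes with 30 counts or more. For Folr1, Kcne2, Slc4a5 and Cldn2 this rested on 1 count in replicate 1 against 0 in each wild-type P30 library, under the limit of 3 counts. Kl, the remaining gene, stood at 0.876 CPM in replicate 1 against at most 0.807 CPM.

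Without replicate 2, the log2 difference was 0.22 for Kl (edgeR adjusted p = 0.915) and 0.10 for Prlr (adjusted p = 0.960). With replicate 1 left out instead, and the lone library assumed to vary like the other groups, Kl stood at a log2 difference of 3.79 (adjusted p = 3.40e-06) and Prlr at 2.37 (adjusted p = 0.00299), where 0.34% of all genes were called higher. The other 8 genes passed the filter of that fit only through replicate 2, so no count over the 10 is given for it. With no filter on low counts, edgeR called 1.63% of all 24034 genes higher in the heterozygous group. Most of the 10 genes had few or no reads outside replicate 2, so the calls among them restate that library and are not counted. Aqp1 was not called there (edgeR adjusted p = 0.0795). Otx2, with 73 counts in replicate 2 and 0 in replicate 1, had a fitted log2 difference of 8.02 there. In the same unfiltered fit without replicate 2, 9 genes had a count and none was called by edgeR, at adjusted p of 0.863 or above, and no unadjusted p was under 0.05 (0.914% of 23633 genes were called higher). A fitted difference for a gene at 0 in wild-type libraries depends on the prior count added and is not a measured ratio.

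In the authors' deposited table of this comparison, made with both heterozygous libraries, the 10 genes were listed with p-values of 0.0543 (Ttr) to 0.352 (Kl). The adjusted p in the authors' deposited table was 0.721 for Ttr and 1 for the other 9. The authors' deposited table gives a wild-type P30 mean of 0 for 6 of the genes, and log2 fold changes of 6.43 for Clic6, 2.95 for Kl, 1.8 for Aqp1 and 1.69 for Prlr.

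The age comparison set the wild-type P100 libraries against the wild-type P30 libraries, which it shares with the genotype comparison. Kl had 1.16 and 1.07 CPM in P100 and 0.635 and 0.807 CPM in P30 libraries, and Prlr 1.67 and 2.78 CPM in P100 and 0.817 and 1.21 CPM in P30 libraries. The groups did not overlap for either gene, an order found for 30.6% of genes with 30 counts or more. By edgeR, Kl had a log2 difference of 0.56 (SE 1.10, adjusted p = 0.813) and Prlr one of 1.02 (SE 0.65, adjusted p = 0.379), while 7.54% of the 15841 genes tested were called, 3% higher and 4.54% lower. None of the 10 genes was called, neither of the 2 tested had an unadjusted p under 0.05, and DESeq2 and limma-voom called none. Aqp1 had 2 and 1 counts in P100 and 1 and 9 in P30 libraries, which overlap. With no filter, where 7.74% of 24034 genes were called, the lowest adjusted p was that of Prlr, at 0.0609. The authors' deposited table of this comparison lists 8 of the 10 genes, with adjusted p of 0.700 for Prlr and 1 for the other 7.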

How the data were processed

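The authors deposited a raw read count for each of 95533 transcripts in each library, per the file headers. Bowtie, HTSeq, DESeq 1.8.3 and the build mm10 are listed in the submitters' processing notes. Settings, annotation release and strandedness are not given in the sources used here. Per the file headers, the comparison tables of the authors hold a mean signal per group (counts over size factors), the fold ratio of both means and the log2 of that ratio. Those deposited tables also give an unadjusted p-value, an adjusted one, and dispersion scores per transcript, which were not used. Transcripts without an Ensembl gene ID (9669, with 13.96% of the counts) were left out. Each of the 34980 genes was represented by its transcript with the highest total. Transcript counts totalled 30651483 to 42374860 per library.

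CPM used gene-level totals. Annotation and lengths come from GENCODE vM21 on GRCm38. The transcript chosen for Folr1 is not in that release, so the length is that of a Folr1 transcript with the same counts. Genes with a minimum count of 10 and a minimum total of 15 (filterByExpr) were fitted in edgeR 4.0.16 (R 4.3.3) with TMM scaling, 1 factor of 3 groups over 6 libraries and 3 residual degrees of freedom. DESeq2 1.42.0, limma-voom (limma 3.58.1), other scalings and filters, summed transcripts, the replicate block and leaving out each library were alternatives.

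The 10 genes and all lists were chosen with earlier results of these data known. Named are the 10 genes, the list genes at 2 times the next library with 10 counts or more, and the 15 other genes with the highest share in heterozygous P30 replicate 2, without Gm and Rik names. Other genes named in the text were chosen after their values were seen, as was the unfiltered fit without heterozygous replicate 2.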

Additional observations from a re-analysis of the deposited data

How the results depend on the processing

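All 10 genes were highest in heterozygous P30 replicate 2 under each of the alternatives tried for that count, TMM scaling and counts summed over transcripts among them. The number of genes called was 511 for heterozygous against wild-type P30 libraries and 1194 for wild-type P100 against P30 libraries. With no filter on low counts it was 1120 and 1860, and with counts summed over transcripts 263 and 791. Leaving out 1 library at a time gave 184 to 473 genes for genotype and 351 to 1078 for age. For genotype the count fell to 184 without heterozygous replicate 1, 199 without wild-type P30 replicate 2 and 337 without heterozygous replicate 2. For age it was 351 and 592 without wild-type P100 replicate 2 and replicate 1, and 602 and 769 without wild-type P30 replicate 2 and replicate 1. With no filter and without heterozygous replicate 2, an alternative chosen after seeing the data, the counts were 681 and 1564. DESeq2 called 416 and 822. Scaling by library totals put 211 of the calls higher and 319 lower for genotype (TMM: 143 and 368), and 707 higher and 560 lower for age (TMM: 475 and 719).

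Per 100 Ttr counts, summed transcripts gave 2.55 for Otx2, 3.73 for Folr1, 1.91 for Kcne2, 1.12 for Slc4a5, 0.881 for Cldn2 and 2.16 for Prlr, and the excess over other libraries gave 0.474 for Prlr.

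The genotype difference of Kl kept its side of the threshold in 14 of 17 alternatives and that of Prlr in 14 of 17. These 14 include DESeq2, which gave no adjusted p for either gene. They also include the fit without heterozygous replicate 2, where the log2 difference was 0.22 for Kl and 0.10 for Prlr. Both genes were called with no filter, under the replicate block and without heterozygous replicate 1. The last of these restates replicate 2 alone, with its spread assumed from the other groups, and is no test of the genotype. With the replicate number as a block, Kl had a log2 difference of 2.82 (edgeR adjusted p = 0.0193) and Prlr one of 1.62 (adjusted p = 0.0440), and 642 and 1320 of 15841 genes were called for genotype and age. The numbers are not stated to pair the libraries, and the deviations of same-numbered libraries correlated at 0.152 for genotype and 0.00395 for age over 12914 genes. Without any 1 of the 4 wild-type libraries, the genotype difference was called by edgeR for neither gene, at adjusted p of 0.123 to 0.269 for Kl and 0.199 to 0.369 for Prlr. For the 7 genes with at most 3 counts per library outside replicate 2, depth limits any comparison among the other 5 libraries.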
